A study of Homo sapiens with 18 samples.

Results

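The early transcriptional response to doxorubicin was measured in GFP cells, the control line of an inducible overexpression system. The cells are MDA-MB-231, an established human triple-negative breast cancer line, stably transduced with a doxycycline-inducible pInducer20 vector for GFP and selected with G418. GFP cells given 250 ng/mL doxycycline from 4 h before the drug and then 0.6 µM doxorubicin for 6 h (2 libraries) were compared with GFP cells given doxycycline and no doxorubicin (2 libraries), so every library compared carried the vector and the inducer. These 4 libraries were chosen by their labels, out of 18 samples in the series. The series asks how ZMYND8, a chromatin reader protein, changes the response of breast cancer cells to doxorubicin, and 12 of its samples belong to the inducible system: GFP and ZMYND8 cells, each without doxorubicin and after 6 or 48 h of it. The labels name 1 line per construct. How long the untreated cells had doxycycline, and when they were harvested, is not given in the sources used here, so time in doxycycline and doxorubicin cannot be told apart. The study calls its libraries biological replicates, but nothing says that the libraries of a condition came from separate cultures, so p-values measure only the spread between these libraries, which may be technical.

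Doxorubicin is an anthracycline that slips between the bases of DNA and traps topoisomerase II on it, which leaves double-strand breaks and evicts histones. Cells answer such damage through the kinases ATM and ATR, which act on checkpoint kinases, and damaged or supercoiled DNA also slows the passage of RNA polymerase II. Short-lived transcripts respond to such treatment within hours, whereas long-lived transcripts keep their level for longer whatever their synthesis does. In bulk RNA, fewer cells of a type and less RNA per cell cannot be told apart.

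The 4 libraries held 19614037 to 20864386 counted read pairs, within the range of 18300628 to 23724398 of all 12 inducible libraries, and 18801 of 60603 genes passed edgeR's filter on low counts. Levels are given as CPM (counts scaled to a common library size) with TMM normalisation factors, in the order replicate 1 and replicate 2. Genes that mark MDA-MB-231 cells were high, with 8 of 8 (VIM, CD44, AXL, CAV1, MSN, LGALS1, ANXA1 and S100A4) at 100 CPM or more in all 4 libraries and a summed level of 9962 to 9966 CPM untreated and 9177 to 9641 CPM at 6 h. Of 8 genes known to be low in this line, ESR1, PGR and FOXA1 stayed under 1 CPM, whereas KRT19 stood at 371 and 366 CPM untreated and 196 and 193 CPM at 6 h. Of 5 luminal epithelial genes, the keratin genes KRT8 and KRT18 were above 100 CPM in all 4 libraries, and the list summed to 1153 to 1173 CPM untreated and 1149 to 1217 CPM at 6 h. The leukocyte genes PTPRC and CD3E stayed under 1 CPM (sum of the 4-gene list, which includes CD14, 19 to 20.1 CPM untreated and 15 to 15.8 CPM at 6 h). The lists for endothelium (3 genes, 6.06 to 6.29 CPM and 3.1 CPM) and fibroblasts (5 genes, 29.8 to 33.2 CPM and 23.8 to 25.4 CPM) were low and lower at 6 h, and their part in the results was not tested.

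Within 6 h of doxorubicin the levels of a large share of the measured transcripts had moved, mostly by small amounts and in both directions. At an adjusted p of at most 0.05 (edgeR's quasi-likelihood test, Benjamini-Hochberg), 4163 genes were upregulated (22.1% of those tested) and 4851 were downregulated (25.8%), and 9787 passed neither way. Changes below 2-fold made up 7290 of these calls. At least 2-fold, 576 genes were upregulated (3.06%) and 1148 were downregulated (6.11%), so large falls outnumbered large rises, and 107 rose and 258 fell at least 4-fold. With the thresholds of the study (unadjusted p of at most 0.05 and a log2 fold change of at least 1.5, which is 2.83-fold), 266 genes rose (1.41%) and 619 fell (3.29%). Over all genes tested, the log2 fold change had a median of -0.05, and the median standard error (SE) of genes with an average log2 CPM of at least 1 was 0.0771. Protein-coding genes made up 14050 of the genes tested, of which 26.6% rose and 30.2% fell, and long noncoding RNAs 3377, of which 9.27% rose and 13.4% fell.

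**Figure D1:**
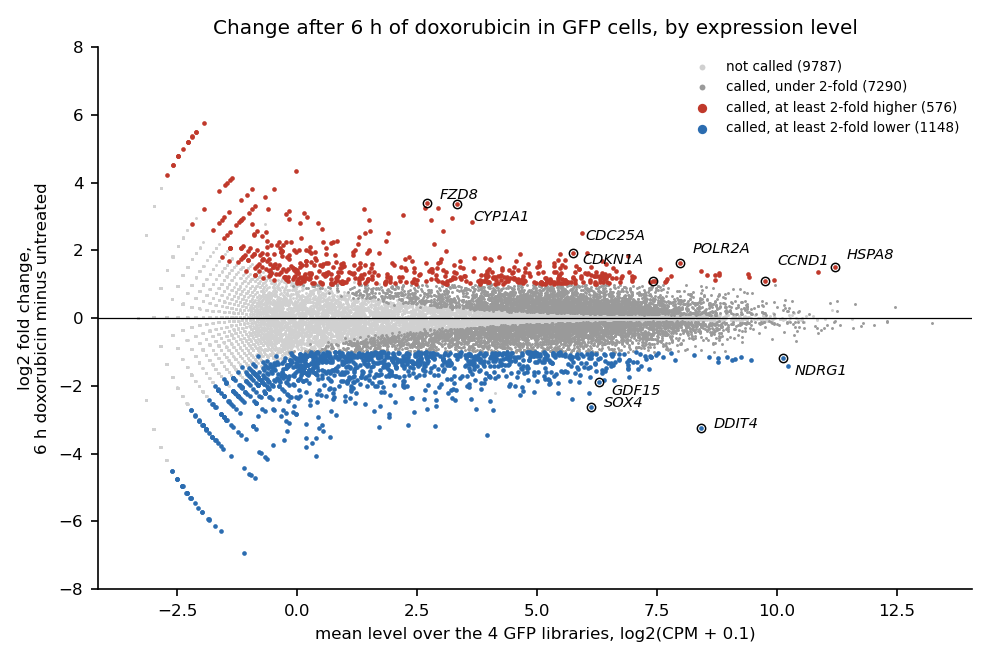
Log2 fold change at 6 h (6 h minus untreated, vertical axis) against the mean level over the 4 GFP libraries as log2 of CPM plus 0.1 (horizontal axis) for the 18801 genes tested, coloured by the call. Most called genes (7290, dark grey) lie within 2-fold, and DDIT4 and SOX4 lie among the 1148 genes called at least 2-fold lower (blue), far below the 576 called at least 2-fold higher (red).

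Of the 12 largest falls, the one from the highest untreated level was that of DDIT4 (chr10:72273924-72276036, plus strand of hg38), which encodes REDD1, an inhibitor of the growth kinase complex mTORC1. DDIT4 stood at 603 and 638 CPM in the untreated libraries and at 68.4 and 61.2 CPM after 6 h, 9.57-fold lower (log2 fold change -3.26 ± 0.0503 SE, edgeR adjusted p = 9.14e-26). Both treated libraries lay far below both untreated ones. SOX4, a transcription factor gene of the SOX family linked to epithelial-mesenchymal transition, fell from 117 and 125 to 19.2 and 19.9 CPM (log2 fold change -2.63 ± 0.0655, edgeR adjusted p = 6.06e-21), again without overlap. PDE7B, which encodes a cyclic AMP phosphodiesterase, fell from 29.6 and 28.6 to 3.78 and 5.19 CPM (log2 fold change -2.70 ± 0.123).

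The rest of the 12 largest falls were of mixed function. TP63, a transcription factor gene of basal epithelium, went from 2.28 and 1.48 CPM to 0.105 and 0.321 CPM (log2 fold change -3.12 ± 0.449), and ELF3, an epithelial ETS factor, had a log2 fold change of -2.91 ± 0.361. DHRS3, a retinaldehyde reductase, fell from 8.72 and 9.86 to 1.26 and 1.45 CPM, and ABCG1, a sterol exporter, from 12 and 13.4 to 2.52 and 1.61 CPM (log2 fold change -2.61 ± 0.197). The others were the zinc finger gene ZNF467 (-3.18), the ESCRT-I subunit gene VPS37D (-2.84), TMEM121 (-2.73), the neurotrophic factor gene ARTN (-2.69) and RGS14, a regulator of G protein signalling (-2.67). Every one of these 12 genes fell without overlap between the libraries, as their choice required.

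The largest rises were found in genes that were low or near silent before treatment. LAMA1, a laminin chain of basement membranes, had 3 counts over both untreated libraries (0.101 and 0.0527 CPM) and 1.57 and 1.82 CPM at 6 h, a ratio of 21.9 with an exact 95% counting interval of 7.16 to 109. FZD8, a Wnt receptor, rose from 1.12 and 1.11 to 11.8 and 11.7 CPM (log2 fold change 3.39 ± 0.195, edgeR adjusted p = 5.45e-14). CYP1A1, the oxidase best known as a target of the aryl hydrocarbon receptor, rose from 1.62 and 1.9 to 17.5 and 18.9 CPM (log2 fold change 3.37 ± 0.143, edgeR adjusted p = 1.08e-16). In each of these genes the treated libraries lay well above the untreated ones and close to each other.

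FAM222A (1.52 and 1.32 CPM, then 13.6 and 13.7 CPM), the homeobox gene EN2 (1.67 and 1.58, then 11.2 and 12.8 CPM) and MFSD2A, a lysophospholipid transporter (2.53 and 2.11, then 12.7 and 15.3 CPM), had log2 fold changes of 3.26, 2.88 and 2.58. The sphingomyelinase gene SMPD3 (2.80), the AP-1 gene FOSB (2.90) and the antisense transcript MAP3K4-AS1 (2.51) completed the rises on which both treated libraries stood together. In the remaining members of the 12 largest rises, 1 treated library stood far above the other. XAGE1B, of a multicopy cancer-testis family, was at 1.17 and 1.21 CPM untreated and at 20.5 and 2.09 CPM treated, and SCAMP3, a carrier membrane protein gene, went from 1.01 and 0.949 to 14.5 and 1.55 CPM. U2AF1, a splicing factor gene with a near-identical annotated copy, was at 2.18 and 2.11 CPM and then at 5.35 and 27.7 CPM, and its counts are uncertain for that reason. For each of these 3 genes the treated libraries differed from each other by more than the lower of them differed from the untreated ones. Without replicate 1 of the treated libraries the log2 fold changes of XAGE1B and SCAMP3 went from 3.25 to 0.81 and from 3.03 to 0.66 and no longer passed the test, and without replicate 2 that of U2AF1 went from 2.94 to 1.32.

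**Figure D2:**
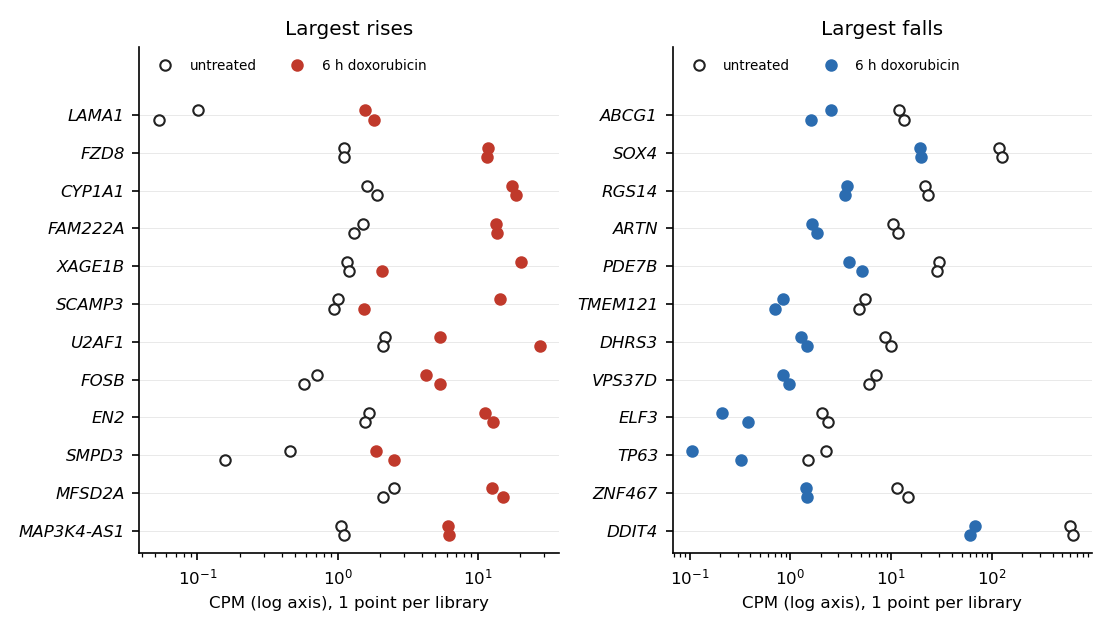
CPM on a log axis for the 12 genes with the largest rises and the 12 with the largest falls, with 1 point per library of untreated GFP cells and of GFP cells at 6 h. The libraries of a condition lie furthest apart in XAGE1B, SCAMP3 and U2AF1 at 6 h, where 1 treated library stands high, followed by the low genes TP63 at 6 h and SMPD3 untreated.

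The replication programme rose almost as a block. Of 61 genes of DNA replication and E2F targets, the genes that E2F factors switch on at the entry into S phase, 54 were upregulated and 0 downregulated by edgeR's quasi-likelihood test, against 22.1% and 25.8% of all genes tested, and their median log2 fold change was 0.53 against -0.05. At an unadjusted p of at most 0.05 the counts were also 54 and 0, and by DESeq2 they were 53 and 0. The 6 h counts of every list below are to be read beside the same 22.1% and 25.8%. Among protein-coding genes these shares were 26.6% and 30.2%. CDC25A, the phosphatase that activates CDK2 at the start of S phase, rose from 22.8 and 22.4 to 83.7 and 87.3 CPM (log2 fold change 1.92 ± 0.0603, edgeR adjusted p = 4.48e-19). MCM10, a replication initiation factor, rose from 18.9 and 21.4 to 67.5 and 64.8 CPM (log2 fold change 1.72 ± 0.0716), and CDC6, which loads the MCM helicase onto origins, from 42.6 and 43.3 to 132 and 128 CPM (log2 fold change 1.6 ± 0.052). In all 3 genes both treated libraries lay far above both untreated ones. CLSPN, the claspin adaptor through which ATR activates CHK1, had a log2 fold change of 1.23 and the helicase subunit gene MCM4 one of 0.93.

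A conserved E2F-type element, TTTCGCGC on either strand, was looked for in promoters running from 250 bases before to 50 bases after the RefSeq start (GRCh38.p14), because the replication genes moved together. Of 40 replication genes with a promoter in the table, 5 held it (12.5%), against 85 of 9099 genes tested (0.934%), 1.43% of upregulated and 0.701% of downregulated genes. At least 2-fold, 2 of 274 upregulated (0.73%) and 0 of 494 downregulated genes held it. The list was made in part of known E2F targets, so its higher share follows from that choice and does not bear on the change at 6 h. The upregulated genes include members of this list. The MCM helicase genes MCM6, MCM3 and MCM2 were among these 5, and they were picked for display as subunits of a shared complex, after their values were seen. Capitals mark the element, which starts 148 and 86 bases before the start of MCM6, 4 bases before that of MCM3, and 3 and 7 bases after that of MCM2, where the matches on the opposite strands overlap. MCM6 lies on the minus strand at chr2:135876394-135876693, MCM3 on the minus strand at chr6:52284693-52284992 and MCM2 on the plus strand at chr3:127598161-127598460.
MCM6: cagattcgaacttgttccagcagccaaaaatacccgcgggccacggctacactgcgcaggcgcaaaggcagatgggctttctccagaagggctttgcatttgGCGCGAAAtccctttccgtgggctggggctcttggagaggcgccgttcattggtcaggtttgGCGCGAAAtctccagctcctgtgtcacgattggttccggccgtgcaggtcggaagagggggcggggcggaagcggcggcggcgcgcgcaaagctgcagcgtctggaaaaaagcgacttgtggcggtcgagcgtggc
MCM3: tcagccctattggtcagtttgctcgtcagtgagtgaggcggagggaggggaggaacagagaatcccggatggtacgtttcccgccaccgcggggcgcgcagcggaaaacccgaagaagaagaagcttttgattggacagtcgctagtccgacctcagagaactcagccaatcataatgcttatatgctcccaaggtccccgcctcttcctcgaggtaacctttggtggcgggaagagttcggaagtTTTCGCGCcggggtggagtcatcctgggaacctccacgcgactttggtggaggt
MCM2: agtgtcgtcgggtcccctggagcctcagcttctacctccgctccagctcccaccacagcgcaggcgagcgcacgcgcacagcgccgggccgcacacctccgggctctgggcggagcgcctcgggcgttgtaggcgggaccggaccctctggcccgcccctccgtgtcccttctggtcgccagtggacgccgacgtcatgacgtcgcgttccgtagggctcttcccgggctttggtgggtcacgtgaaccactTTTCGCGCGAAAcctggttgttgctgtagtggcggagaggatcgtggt
MCM6, with its pair of separate matches, stood at 90.9 and 86.2 CPM untreated and 139.6 and 143 CPM at 6 h (log2 fold change 0.67 ± 0.0479). MCM3 went from 276 and 268 to 369 and 376 CPM (log2 fold change 0.45 ± 0.0389) and MCM2 from 96.5 and 93.8 to 135 and 136 CPM (log2 fold change 0.51 ± 0.0442). A match is a description of these letters in this window, and no match says only that the letters are not there.

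The genes of the later cell cycle were divided. Of 60 genes of mitosis and G2/M, 12 were upregulated and 25 downregulated, against 22.1% and 25.8% of all genes tested. Their median log2 fold change was -0.11, and 2 fell at least 2-fold. ASPM, a spindle pole protein gene, fell by 0.63 on the log2 scale, CENPF, a kinetochore protein gene, by 0.60, and PSRC1, a microtubule regulator gene, by 1.05. The cyclin-dependent kinase gene CDK1 (0.50) and PKMYT1, whose product inhibits it (0.79), rose. TOP2A, a proliferation-linked topoisomerase that doxorubicin traps, stood at 483 and 477 CPM untreated and 482 and 466 CPM at 6 h. It did not pass the test (log2 fold change -0.02 ± 0.0366, edgeR adjusted p = 0.718). Its libraries overlapped between the conditions.

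Among 58 genes of DNA repair and the damage checkpoint, 26 were upregulated and 9 downregulated (median 0.16). Rises included the resection nuclease EXO1 (1.10), RBBP8, which encodes CtIP (0.87), FANCE of the Fanconi core complex (0.77) and TIPIN, a fork protection factor (0.91), 21.1% of whose exon bases are shared with a gene on its own strand. The long genes of the damage kinases ATM (-0.53) and PRKDC (-0.54) fell, as did TP53BP1 (-0.60), whose product directs breaks to end joining, and H2AX, the histone variant phosphorylated at breaks (-0.40). The study named 5 genes of DNA damage (BRCA1, CDC25A, MCM10, RFC3 and CLSPN), all 5 of which were upregulated, 3 at least 2-fold, with a median of 1.23. This list was chosen on samples of this series and is no independent evidence of its direction. BRCA1, the recombination gene of hereditary breast cancer, rose by 0.57 ± 0.0615 on the log2 scale and RFC3, a subunit of the clamp loader, by 0.82 ± 0.064.

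The targets of p53 split. Of 37 tested in this p53-mutant line, 15 were upregulated and 14 downregulated, with a median of 0.01, close to that of all genes. Whether p53 acted on any of them was not tested. CDKN1A, which encodes the CDK inhibitor p21, rose from 114 and 106 to 236 and 231 CPM (log2 fold change 1.09 ± 0.0434, edgeR adjusted p = 3.49e-17). AEN, a nuclease induced in apoptosis (1.72), SERTAD1, a CDK4-binding protein (1.5), and SUSD6 (1.10) rose with it. GDF15, a secreted stress cytokine, went the other way, from 118 and 128 to 31.7 and 34.1 CPM (log2 fold change -1.90 ± 0.0655, edgeR adjusted p = 2.01e-18). BBC3, which encodes the BH3-only death protein PUMA (-1.73), PHLDA3, an inhibitor of AKT (-1.31), and CCNG1 (-0.76) fell, and MDM2, a ubiquitin ligase gene, fell by 0.25 on the log2 scale.

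The cell death genes showed a similar split, with 8 of 32 upregulated, 13 downregulated and a median of -0.14. BMF, a BH3-only protein gene (-1.80), the death ligand gene TNFSF10 (-1.52) and BBC3 were the members that fell at least 2-fold, whereas CYCS, which encodes cytochrome c (0.99), RIPK1 (0.77) and the survival gene MCL1 (0.44) rose. Of 20 genes of G1 cyclins, CDKs and their inhibitors, 8 were upregulated and 10 downregulated (median -0.12). CCND1, the D-type cyclin that starts the phosphorylation of RB, rose from 561 and 551 to 1196 and 1149.6 CPM (log2 fold change 1.08 ± 0.0414). CCNG2, a cyclin of quiescent cells (-1.59), CDKN2D, which encodes p19 (-1.12), and CDKN1B, which encodes p27 (-0.35), fell.

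**Figure D3:**
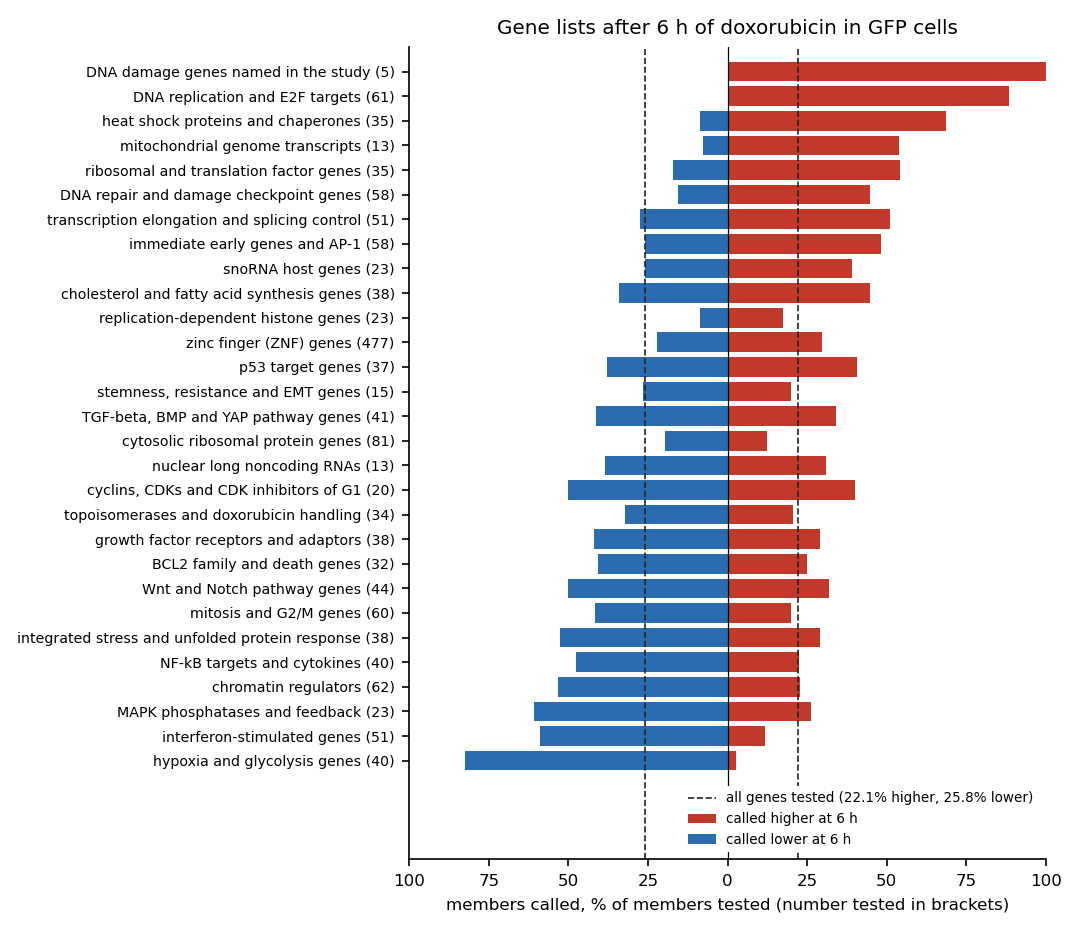
Members of each gene list called higher (red, right) or lower (blue, left) at 6 h in GFP cells, as a percent of the members tested, with dashed lines at the 22.1% and 25.8% of all genes tested. The replication list has bars to the right only and the hypoxia list nearly only to the left, whereas p53 targets and G1 regulators have both.

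Immediate early genes rose more often than they fell, 28 against 15 of 58, with a median of 0.34, and 5 rose and 4 fell at least 2-fold. FOSB, a partner in the AP-1 factor, rose from 0.71 and 0.58 to 4.3 and 5.41 CPM (log2 fold change 2.90 ± 0.254, edgeR adjusted p = 2.44e-10). FOS (0.99), EGR1 (0.90), ATF3 (0.64) and JUN (0.24), further genes of the rapid response to growth factors and stress, rose less, and MYC, the growth regulator, rose by 0.15, a call lost without untreated replicate 1 (0.12) or treated replicate 1 (0.08). SGK1, a kinase of the serum response, rose by 0.97. Falls were found in BHLHE41 (-1.95) and BHLHE40 (-0.74), repressors of the circadian clock, in the antiproliferative gene BTG1 (-1.01) and in the AP-1 gene FOSL2 (-0.79).

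Phosphatases, feedback genes and ligands of the ERK pathway fell more often than they rose. Of 23 genes 14 were downregulated, 7 of them at least 2-fold, and 6 were upregulated, with a median of -0.46. AREG, which encodes the EGFR ligand amphiregulin, fell from 168 and 172 to 75 and 68.2 CPM (log2 fold change -1.24 ± 0.0483, edgeR adjusted p = 2.12e-17), with each treated library below each untreated one. PHLDA1 (-1.31), ERRFI1, an inhibitor of EGFR (-1.22), and DUSP4, a nuclear ERK phosphatase (-1.14), fell too. DUSP2, another phosphatase of ERK, went the other way, from 0 and 0.105 CPM with 2 counts in all to 0.577 and 0.856 CPM, a ratio of 13.8 with an exact 95% counting interval of 3.48 to 120. Its fitted log2 fold change went from 3.64 to 6.93 without untreated replicate 2, which leaves no count before treatment.

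Inflammatory genes leaned down. Of 40 targets of NF-kB and cytokines, 9 were upregulated and 19 downregulated (median -0.37). BCL3 (-1.91) and NFKBIZ (-1.82), nuclear partners of NF-kB, fell most among the named members, followed by the apoptosis inhibitor BIRC3 (-1.07) and the macrophage growth factor gene CSF1 (-0.75). The precursor gene NFKB1 (0.93) and the inhibitor gene NFKBIB (0.73) rose. Of 51 interferon-stimulated genes, 30 were downregulated and 6 upregulated (median -0.30), though only 3 of the falls reached 2-fold. XAF1 (-1.59), SAMD9L (-1.01) and the antiviral GTPase gene MX1 (-0.92) fell.

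The branches of the stress response parted. Of 38 genes of the integrated stress and unfolded protein responses, 11 were upregulated and 20 downregulated, with 2 and 6 at least 2-fold and a median of -0.24. ATF4, the factor at the head of the integrated stress response, went from 441 and 459.7 to 235 and 235 CPM (log2 fold change -0.94 ± 0.038), whereas ATF5, its relative, went from 29 and 26.1 to 112 and 96.1 CPM (log2 fold change 1.92 ± 0.0729). Both moved without overlap between the libraries, in opposite directions. SLC7A5 (1.12) and SLC3A2 (0.94), the subunits of a large neutral amino acid transporter, rose, and so did PPP1R15A, which encodes GADD34, a phosphatase subunit that ends the response (0.87). KLHL24 (-1.44) and VEGFA (-0.97) fell with DDIT4.

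Cyclic AMP response elements (TGACGTCA, either strand, the same letters on both) were looked for in the same promoter windows. They stood in 2.01% of all RefSeq promoters and in 307 of the 9099 genes tested with a promoter (3.37%), in 4.73% of upregulated, 3.05% of downregulated and 2.77% of the other genes tested. At least 2-fold, the share was 5.47% of 274 upregulated and 1.82% of 494 downregulated genes. AREG on the plus strand at chr4:74444886-74445185 and PPP1R15A on the plus strand at chr19:48872171-48872470 are shown because both hold the element close to the start, 65 and 58 bases before it, and moved in opposite directions. Capitals mark the element.
AREG: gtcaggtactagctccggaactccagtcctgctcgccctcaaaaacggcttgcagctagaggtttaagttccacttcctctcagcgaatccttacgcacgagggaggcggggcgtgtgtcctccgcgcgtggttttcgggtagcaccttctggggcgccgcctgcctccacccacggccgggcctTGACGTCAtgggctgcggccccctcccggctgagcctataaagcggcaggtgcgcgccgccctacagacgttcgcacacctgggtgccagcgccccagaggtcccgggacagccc
PPP1R15A: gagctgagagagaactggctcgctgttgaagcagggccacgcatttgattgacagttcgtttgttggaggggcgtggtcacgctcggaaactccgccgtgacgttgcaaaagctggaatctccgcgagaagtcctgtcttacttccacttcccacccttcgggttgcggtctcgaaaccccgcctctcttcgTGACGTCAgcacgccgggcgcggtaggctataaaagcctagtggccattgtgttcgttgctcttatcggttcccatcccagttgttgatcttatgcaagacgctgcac
AREG fell by 1.24 on the log2 scale and PPP1R15A, at 116 and 119 CPM and then 220.0 and 211 CPM, rose by 0.87. The AP-1 element TGANTCA, which shares bases with the cyclic AMP element but has another spacing, stood in 8.05% of all promoters, 5.11% of those of genes tested, 4.2% of upregulated and 4.74% of downregulated genes, but in 6.2% and 6.07% of those that changed at least 2-fold. The GC-rich element GGGCGG stood in 43.0% of all promoters and 68.6% of genes tested, and in 72.4% and 73.0% of upregulated and downregulated genes, whose median GC content was 65.3% and 67.0%. At least 2-fold, 72.6% of upregulated and 64.0% of downregulated genes held it. These shares are given without a test.

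Chaperone genes rose. Of 35 heat shock proteins and chaperones, 24 were upregulated and 3 downregulated, with a median of 0.33. HSPA8, the constitutive HSP70, rose from 1252 and 1209.5 to 3465 and 3514 CPM (log2 fold change 1.5 ± 0.0365, edgeR adjusted p = 4.55e-21), and its nucleotide exchange factors HSPH1 (1.07) and HSPA4 (0.71) and its cochaperone DNAJA1 (0.72) rose with it. Falls were found in BAG1 (-0.48), DNAJB5 (-0.31) and DNAJB1 (-0.16).

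Genes of hypoxia and glycolysis moved in the opposite direction, with 33 of 40 downregulated and 1 upregulated (median -0.43). NDRG1, a hypoxia-induced gene, fell from 1532 and 1561 to 708 and 650.0 CPM (log2 fold change -1.19 ± 0.0403, edgeR adjusted p = 1.55e-18). PFKFB4, which sets the rate of glycolysis (-2.39), the glucose transporter gene SLC2A3 (-1.30) and MXI1, an antagonist of MYC (-1.19), fell at least 2-fold as well. The hexokinase gene HK2 was the 1 member that rose (0.38).

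Rises outnumbered falls among genes of the transcription machinery and of ribosome assembly. Of 51 genes of transcription elongation and splicing control, 26 were upregulated and 14 downregulated (median 0.22). POLR2A, the catalytic subunit of RNA polymerase II, rose from 128 and 122 to 396 and 364 CPM (log2 fold change 1.61 ± 0.0554, edgeR adjusted p = 2e-18). MEPCE, which caps and holds the 7SK RNA that keeps the elongation kinase P-TEFb inactive, rose by 1.29, and CDK12, an elongation kinase, by 0.62. The splicing factor genes SRSF3 (-0.43) and RBM39 (-0.40) fell. Of 35 ribosome biogenesis and translation factor genes, 19 rose and 6 fell (median 0.27). NOP56, a core protein of box C/D snoRNPs (1.45), RRP12 (1.5), the pseudouridine synthase DKC1 (1.15) and nucleolin, NCL (0.99), rose, the last from 655 and 681 to 1332 and 1323 CPM. EIF4B (-0.59) and EEF2 (-0.34), which act in initiation and elongation of translation, fell.

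The 81 cytosolic ribosomal protein genes hardly moved, with 10 upregulated, 16 downregulated and a median of -0.03. Of 23 snoRNA host genes 9 rose, 5 of them at least 2-fold, and 6 fell (median 0.02, from -0.03 to 0.18 with 1 library left out), with SNHG1 (1.18) and SNHG15 (1.10) among the rises and SNHG11 (-0.86) among the falls. The 13 mitochondrial genome transcripts had 7 rises, 1 fall and a median of 0.29, led by MT-ND1 (0.62). DESeq2 called 1 rise and no fall, and without untreated replicate 1 edgeR called 4 rises and no fall. Of 13 nuclear long noncoding RNAs 4 rose and 5 fell (median -0.16). DESeq2 called 2 rises, edgeR 1 rise without untreated replicate 2 or treated replicate 2, and the median went to -0.001 without treated replicate 1. MIR22HG, the host of miR-22, rose by 1.81, and MALAT1 (-0.52), a resident of nuclear speckles, fell. Of 23 replication-dependent histone genes, whose transcripts mostly lack a poly(A) tail and are thus poorly sampled here, 4 rose and 2 fell (median 0.10, which turned to -0.062 when the 4 GFP libraries were fitted alone and to -0.042 without treated replicate 1). Of 477 zinc finger (ZNF) genes, 141 rose and 106 fell (median 0.01), against 22.1% and 25.8% of all genes tested. At least 2-fold, 11 rose and 14 fell.

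Signalling genes moved in both directions. Of 41 genes of the TGF-beta, BMP and YAP pathways, 14 were upregulated and 17 downregulated (median -0.07). ANKRD1, a YAP target, rose from 384 and 387 to 954 and 963 CPM (log2 fold change 1.31 ± 0.0369, edgeR adjusted p = 5.45e-20). CCN2, another target of YAP (0.78), and the ligand gene TGFB2 (0.92, with 22.7% of its exon bases shared with a gene on its strand) rose. The receptor genes TGFBR3 (-1.59), TGFBR2 (-0.72) and TGFBR1 (-0.49) all fell.

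Of 44 Wnt and Notch pathway genes 14 rose and 22 fell (median -0.26). Next to FZD8, the acyltransferase gene PORCN, needed for the secretion of Wnt proteins (1.13), and the Wnt inhibitor gene DKK1 (0.90) rose, whereas the nuclear effector TCF7L2 (-1.02), the ligand gene JAG1 (-0.70) and the receptors NOTCH1 (-0.57) and NOTCH2 (-0.59) fell. Of 38 growth factor receptors and adaptors 11 rose and 16 fell (median -0.06), against 22.1% and 25.8% of all genes tested. The receptor genes EPHB4 (-0.93) and IGF1R (-0.85) and the adaptor gene IRS1 (-0.58) fell, and PIK3R1, the regulatory subunit of PI3 kinase (0.74), and AXL (0.47) rose. Of 38 cholesterol and fatty acid synthesis genes 17 rose and 13 fell (median 0.09). Of the named members, IDI1 (1.06) and HMGCS1 (0.76), which act in sterol synthesis, rose, and the exporters ABCG1 and ABCA1 (-1.38) fell.

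The chromatin regulators fell more often than they rose, 33 against 14 of 62, with a median of -0.18. ZMYND8 itself, whose protein reads acetylated histones, fell from 209 and 208 to 93.8 and 99.4 CPM in these GFP cells (log2 fold change -1.11 ± 0.0492, edgeR adjusted p = 2.6e-16), with both treated libraries below both untreated ones. HDAC4, a class II deacetylase (-1.59), KMT2C, a methyltransferase of enhancers (-1.08), and the remodeller CHD2 (-0.99) fell, and EED (0.88) and EZH2 (0.58) of the Polycomb complex PRC2 rose. Of 19 genes of stemness, drug resistance and EMT, most of them named by the study, 15 were tested. Of these 3 rose and 4 fell (median 0.00), against 22.1% and 25.8% of all genes tested. The study measured such genes by qRT-PCR. The list used here was written with earlier results of these data known, so it is no independent evidence. SNAI2 (0.76), the EMT factor also called Slug, and CDH2, which encodes N-cadherin (1.49, at 0.355 and 0.527 CPM and then 1.15 and 1.34 CPM), rose, as did BMI1 (0.19, 22.8% of exon bases shared with a gene on its strand), and ZEB1 (-0.62) and VIM (-0.21) fell. The call of CDH2 was lost without untreated replicate 1 (1.23).

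Of 34 topoisomerases and genes of doxorubicin handling, 7 were upregulated and 11 downregulated (median -0.09), against 22.1% and 25.8% of all genes tested. TOP3A (0.93), TOP1 (0.50) and the thioredoxin reductase gene TXNRD1 (0.78) rose. TOP2B, the other topoisomerase II gene besides TOP2A, fell by 0.29 on the log2 scale. ABCC1, an anthracycline exporter, fell by 0.45 on the log2 scale, a call lost without untreated replicate 1 (-0.24) or treated replicate 2 (-0.26). The copper transporter gene ATP7A (-0.83) and HMOX1, heme oxygenase 1 (-0.57), fell, and the reductase gene NQO1 rose (0.59).

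**Figure D4:**
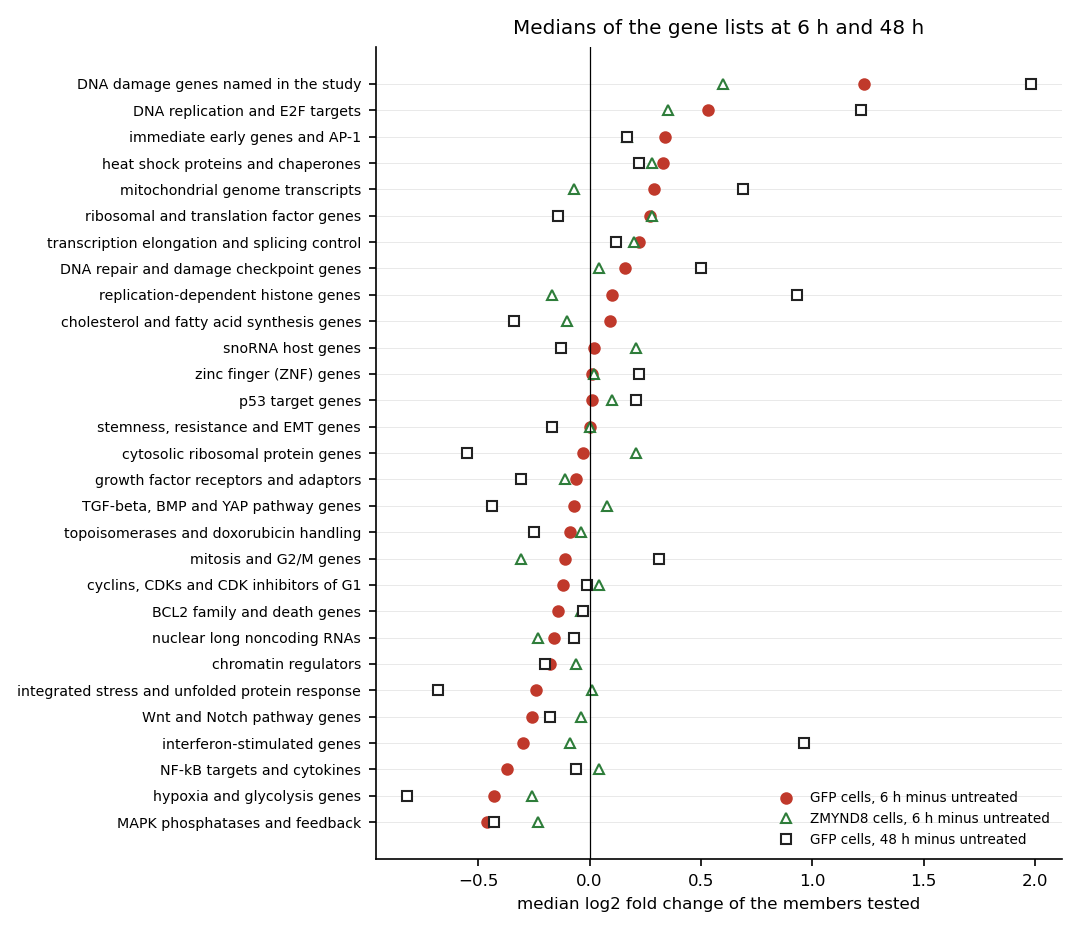
Median log2 fold change of each gene list in GFP cells at 6 h, in GFP cells at 48 h and in ZMYND8 cells at 6 h, each against its own untreated cells. The replication list lies at 0.53, 1.22 and 0.35 and the hypoxia list at -0.43, -0.82 and -0.26, while interferon-stimulated genes lie at -0.30, 0.96 and -0.09. Total counts in place of TMM would move the 48 h values up by about 0.25 and keep these signs.

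Genes that span much of the genome fell more often than compact ones. Of 998 tested genes spanning 250 kb or more from start to end, 39.6% were downregulated and 6.31% upregulated, with a median log2 fold change of -0.34, which was -0.33 in each treated library taken alone. Of 5401 genes under 10 kb, 17.1% were downregulated and 17.9% upregulated, with a median of -0.02. The classes between followed in order from 30 kb on: 27.3% down and 26.1% up (median -0.02) for 5381 genes of 30 to 100 kb, and 39.1% down and 17.1% up (median -0.17) for 2396 genes of 100 to 250 kb. Falls of at least 2-fold made up 12.2% of the longest class and 5.7% of the shortest. The classes differed in level, with a median untreated level of 2.56 CPM in the shortest and 5.74 CPM in the longest. Among genes with an average log2 CPM of at least 1, 57.3% of the longest class were downregulated and 9.19% upregulated. In the shortest class these shares were 24.6% and 28.7%. Genes of like exon length were compared between spans under 30 kb and of 100 kb or more. Exon length and level together set how many reads a transcript gives. The share downregulated went from 27.1% to 46.2% in genes with 8 kb or more of exons (medians 0.02 and -0.29) and from 27.1% to 34.7% at 4 to 8 kb (0.00 and -0.15). It hardly differed at 2 to 4 kb (22.8% and 23.2%, medians -0.02 and -0.12) and at 1 to 2 kb (16.4% and 15.6%, medians -0.02 and -0.18, with only 64 long genes). The share upregulated was lower in the long genes of each class. It went from 32.9% to 12.3% at 8 kb or more and from 30.3% to 15.8% at 4 to 8 kb. At 2 to 4 kb it went from 25.5% to 16.5% and at 1 to 2 kb from 16.8% to 9.38%. The part of transcript stability and of gene function in this order was not tested.

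**Figure D5:**
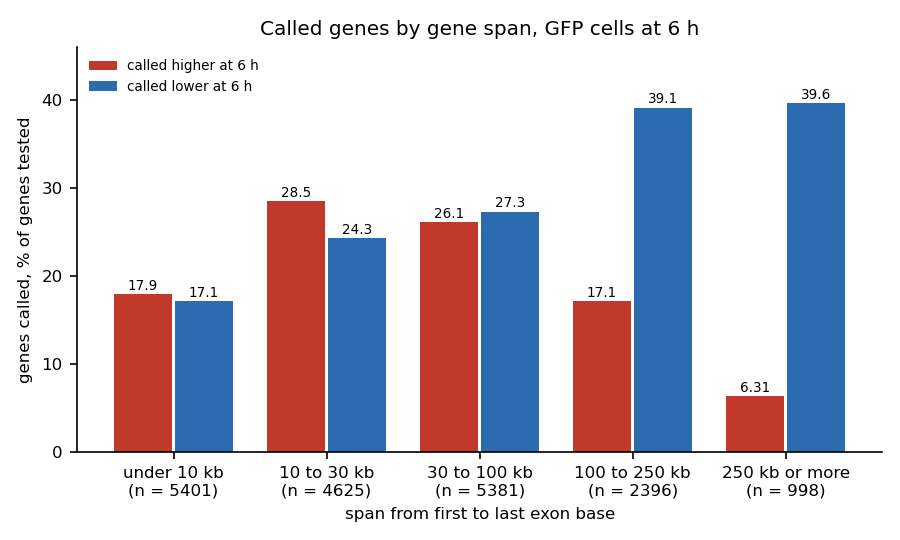
Genes called higher (red) and lower (blue) at 6 h in GFP cells, as a percent of the genes tested (vertical axis), by the genomic span from the first to the last exon base (horizontal axis). The share called lower goes from 17.1% under 10 kb to 39.6% at 250 kb or more, where 6.31% were called higher.

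The 6 h values were set beside those at 48 h of the same drug, which share the untreated libraries. Directly compared, 6019 genes were higher (32.0%) and 5682 lower (30.2%) at 48 h than at 6 h by edgeR's quasi-likelihood test. By total counts in place of TMM these were 8726 and 3384, so the share of higher genes among the calls went from 51.4% to 72.1%, with a shift of 0.25 in the median of all genes. Each list below kept its direction by total counts and by RLE factors. The replication list, with a median of 0.53 at 6 h and 1.22 at 48 h, had 52 members higher and 6 lower at the later time. The 51 interferon-stimulated genes had medians of -0.30 and 0.96, with 41 higher and 6 lower. DDIT4 stood at 81.3 and 77 CPM at 48 h, near its 6 h level, while GDF15, low at 6 h, stood at 140.2 and 135 CPM, above its untreated level.

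CDKN1A stood at 447 and 446 CPM at 48 h, higher than at 6 h (0.94 ± 0.0401, edgeR adjusted p = 6.39e-17). TP63, which had nearly vanished at 6 h, was at 3.86 and 2.94 CPM at 48 h, and DHRS3 was at 17.3 and 16.6 CPM. ZMYND8 was at 139 and 141 CPM, between its untreated and 6 h levels, and TOP2A stood at 841 and 854 CPM. Other lists were higher at 48 h in most of their called members, such as mitosis (42 higher, 6 lower), repair (36 and 8) and p53 targets (19 and 11), and by total counts only 1 to 3 members of each of these 3 lists were lower. The lists of ribosomal proteins (2 higher, 71 lower), ribosome biogenesis and translation factors (32 of 35 lower), TGF-beta, BMP and YAP (4 and 34) and hypoxia (6 and 29) were lower, the last pair with 8 higher and 17 lower and with 12 and 23 by total counts. The hypoxia median went from -0.43 to -0.82. As the untreated libraries served both times, these 6 h and 48 h values are not independent.

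Last, the 6 h response of GFP cells was compared with that of ZMYND8 cells, the same cell line with inducible ZMYND8 and the same drug, dose and times, which share no library with them. In ZMYND8 cells 4102 genes rose (21.8%) and 3572 fell (19.0%) against their own untreated cells. Of the 576 genes upregulated at least 2-fold in GFP cells, 524 (91.0%) had the same sign in ZMYND8 cells, 346 (60.1%) were called the same way and 2 the opposite way, with a median of 1.35 in GFP and 0.74 in ZMYND8 cells. Of the 1148 downregulated genes, 1050 (91.5%) had the same sign, 650 (56.6%) were called the same way and 3 the opposite way, with medians of -1.46 and -0.89. Genes picked for a large change in GFP cells tend to show a smaller one in libraries that took no part in the choice. Picked instead by ZMYND8 cells, 228 genes upregulated at least 2-fold had a median of 1.37 there and 1.23 in GFP cells, and 670 downregulated genes -1.38 and -1.13.

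The difference of the responses was tested by an interaction term (the 6 h response of ZMYND8 cells minus that of GFP cells), which was above 0 for 1478 genes (7.86%) and below 0 for 1037 (5.52%). By total counts these were 822 and 1730, so the share above 0 among the calls went from 58.8% to 32.2%, and without a filter on low counts it was 48.0%. Of the genes 2-fold up in GFP cells the interaction was called towards a smaller response in ZMYND8 cells for 221 and a larger one for 3, and of those 2-fold down for 241 and 5. Picked by ZMYND8 cells these counts were 28 smaller and 31 larger among rises, and 44 and 33 among falls.

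SOX4, 1 of the 12 largest falls in GFP cells (-2.63), went from 57.9 and 57.7 to 36.1 and 33.2 CPM in ZMYND8 cells (-0.74, interaction 1.89 ± 0.0929, edgeR adjusted p = 3.94e-13). CDKN1A, up by 1.09 in GFP cells, stood at 133 and 135 CPM in untreated and 155 and 159 CPM in treated ZMYND8 cells (0.23, interaction -0.85, edgeR adjusted p = 3.44e-10). In SOX4 and CDKN1A alike the untreated levels of the lines differed, and the part of that difference in the interaction was not tested. DDIT4 fell in both lines (-3.26 in GFP and -2.72 in ZMYND8 cells), by less in ZMYND8 cells (interaction 0.53 ± 0.0702, edgeR adjusted p = 6.28e-06). In the replication list the interaction was called below 0 for 22 of 61 genes (33 by total counts), and the median was 0.53 in GFP and 0.35 in ZMYND8 cells.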

How the data were processed

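Poly(A) RNA-seq counts of 4 GFP libraries were compared, 2 per condition. The deposited tables hold unnormalised counts (read pairs per gene), which the authors produced, per the file headers, using featureCounts 1.6.4 (paired, reverse-stranded, exons summed by gene of GENCODE 31). Reads that map to several places or overlap several genes were not counted, which is the tool's default. The submitters' processing notes list Trim Galore, HISAT2, featureCounts, DESeq2 and hg38 without versions, while the study's methods name TopHat and cuffdiff, so the aligner is uncertain.

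All 12 inducible libraries (6 conditions) were fitted together in edgeR 4.0.16 (R 4.3.3, limma 3.58.1) with TMM factors, 1 mean per condition and the quasi-likelihood test, on genes kept by filterByExpr. The p-values were adjusted by Benjamini-Hochberg across all 18801 genes tested. The fit was tested on simulated data. Replicate libraries differed by more than sampling noise (chi-square per degree of freedom 2.213 and 2.481). With 2 against 2 libraries the smallest two-sided p of an exact permutation test is 0.333. Intervals on count ratios are exact and cover counting error only.

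The members and the 29 gene lists were chosen with earlier results of these data known. Named genes are the 12 largest changes each way among called, non-overlapping genes with an average log2 CPM of at least 1. Added to these are up to 4 called members of each list each way by adjusted p, lists of 5 genes in full, and genes the study names. The average log2 CPM ran over all 12 inducible libraries, so LAMA1 met the limit through libraries outside the comparison. MCM2, MCM3, MCM6 and TOP2B were named besides, after their values were seen. Some genes that meet the rule are not reported here. Of the list members, 2 were not matched. Promoters came from RefSeq (GRCh38.p14) and matched 9099 of the genes tested, and gene types came from GENCODE 44.

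Alternatives were DESeq2 (1.42.0) and its size factors, total counts, no filter, at least 10 counts in every library, the 4 GFP libraries alone, each replicate left out and a replicate block.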

Additional observations from a re-analysis of the deposited data

Results flagged for a closer look

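The following genes, each among the largest changes of GFP cells or named by the study, differed between the lines by the interaction test itself (6 h response of ZMYND8 cells minus that of GFP cells, log2 scale, edgeR adjusted p of at most 0.05). All but ZMYND8 were chosen by their change in GFP cells, which favours a smaller response in the other line. Only differences of at least 1 either way are listed, so DDIT4 (0.53) is left out. The 5 DNA damage genes that the study named are not listed either, and all 5 were called below 0 (median -0.63). Among the rises the interaction was -3.58 for LAMA1, -1.43 for FZD8, -1.45 for CYP1A1, -1.10 for FAM222A, -1.08 for FOSB, -1.27 for EN2 and -1.35 for MFSD2A. It was -2.60 for XAGE1B and -2.39 for U2AF1, in each of which 1 treated GFP library stood far above the other. Among the falls it was 2.04 for ZNF467, 2.24 for DHRS3, 1.29 for PDE7B, 1.03 for ARTN and 1.89 for SOX4. For ZMYND8 it was 1.01, where the counts of ZMYND8 cells also hold transcripts of the introduced construct. Untreated, every one of these rises but U2AF1 stood higher in ZMYND8 than in GFP cells, such as LAMA1 (1.62 and 2.58 CPM). Every one of these falls but ARTN stood lower there. At 6 h LAMA1, FOSB, EN2 and MFSD2A were higher in ZMYND8 than in GFP cells, and FZD8, CYP1A1, FAM222A and U2AF1 were lower. The part of these differences in the interaction was not tested.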

How the results depend on the processing

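The counts of upregulated and downregulated genes at 6 h (4163 and 4851) ranged from 3753 to 4632 and from 3907 to 4880 over the alternatives that kept all 4 libraries, and from 3635 to 3729 and from 3991 to 4180 with 1 library left out. With a 2-fold change these left-out ranges were 544 to 564 and 1004 to 1066, with the thresholds of the study 286 to 324 and 642 to 685, for 48 h against 6 h 5319 to 5431 and 5257 to 5371, and for the interaction 1031 to 1345 and 759 to 944. Requiring at least 10 counts in every library, which leaves 13783 genes, gave 347 and 654 genes with a 2-fold change in place of 576 and 1148, and 72 and 176 past the thresholds of the study in place of 266 and 619. No filter on low counts (39998 genes) gave 429 upregulated genes past the thresholds of the study, and the 4 GFP libraries alone (15991 genes) gave 399 downregulated ones. By total counts 3384 genes were lower at 48 h than at 6 h (5682 by TMM), and the interaction was above 0 for 822 and below 0 for 1730 genes (1478 and 1037 by TMM); DESeq2 gave 932 above 0. The median of genes spanning 250 kb or more was -0.39 among genes with an average log2 CPM of at least 1 (-0.34 without that limit). The histone list median of 0.10 was -0.062 with the 4 GFP libraries alone and ranged from -0.042 to 0.36 with 1 library left out. The cause of these changes was not tested.

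Of the 238 named genes (229 with at least 10 counts in every library), all that were fitted kept their direction except TOP2A, which did not pass the test in any of these fits; DESeq2 lost 8 calls and leaving out a library lost 6 to 8. The share of 2-fold genes with the same sign in ZMYND8 cells (91.3%) ranged from 89.5% to 97.8% over alternatives chosen after seeing the data. Among the list medians, 5 of 29 moved without a filter on low counts. With 1 library left out, besides histones, medians moved for NF-kB targets (-0.255), the 5 DNA damage genes (1.34), snoRNA hosts (0.177) and nuclear long noncoding RNAs (-0.054 and -0.001). The replicate numbers are shared by the conditions, but deviations of same-numbered libraries correlated by -0.000366 between untreated and treated GFP cells, so the numbers were not taken as pairs. With a replicate block the counts were 4128 and 4801 at 6 h, 567 and 1122 with a 2-fold change, 264 and 611 past the thresholds of the study, 5956 and 5648 for 48 h against 6 h and 1397 and 996 for the interaction.

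Depth limits genes near 1 CPM (about 20 counts per library), where a single library can set the fold change. Only 2 libraries per condition limit every estimate of spread, and nothing says they are separate cultures.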

Other observations

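Values at 6 h in GFP cells are given for 10 genes of the circadian clock outside the lists above, picked after their values were seen. The PAR-domain factors DBP (12.2 and 12.6 CPM untreated, 3.15 and 2.89 CPM at 6 h, log2 fold change -2.03 ± 0.152 SE) and TEF (21.7 and 24.1 CPM, then 5.35 and 5.41 CPM, log2 fold change -2.09 ± 0.117) fell, and so did the repressor gene NR1D1 (-0.88), which encodes REV-ERB alpha, PER1 (-0.53), CIART (-1.22) and, by a small amount, NR1D2 (-0.14). CRY1, which encodes the cryptochrome that represses CLOCK, rose from 30.5 and 32.7 to 85.5 and 86.4 CPM (log2 fold change 1.44 ± 0.0585), and CRY2 rose by 0.27. PER2 (0.15, edgeR adjusted p = 0.426) and PER3 (0.13, edgeR adjusted p = 0.261) did not pass the test. In ZMYND8 cells, which share no library with these, DBP (-1.68), TEF (-1.77) and CRY1 (1.04) changed in the same directions. When the untreated cells were harvested is not given, so time of day and drug cannot be told apart.

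Also picked after their values were seen were 2 cytochrome P450 genes next to CYP1A1. CYP24A1, which breaks down vitamin D, rose from 18.7 and 17.9 to 104 and 103 CPM and stood at 21.1 and 22.3 CPM at 48 h. CYP1B1 rose from 221 and 222 to 541 and 518 CPM and stood at 122 and 119 CPM at 48 h. TIPARP, another target of the aryl hydrocarbon receptor, rose by 0.25 on the log2 scale. The helix-loop-helix inhibitor gene ID3 rose from 6.39 and 5.06 to 16.1 and 16.2 CPM, while ID1 went from 46.9 and 45.2 to 41.4 and 39.8 CPM (log2 fold change -0.18 ± 0.0674).

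Like XAGE1B, SCAMP3 and U2AF1, ITPK1 stood high in a single treated GFP library (4.92 and 5.01 CPM untreated, 25.4 and 6.32 CPM at 6 h), and at 48 h SCAMP3 stood at 1.29 and 23.8 CPM and ITPK1 at 16.5 and 6.9 CPM.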
